A study of Mus musculus with 20 samples.

Results

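Glycolysis genes, the enzymes, transporters and regulators that carry glucose to pyruvate and lactate, were followed in natural killer (NK) cells from mouse spleen. The set was chosen by function and holds 33 genes. They were 2 glucose transporters, the hexokinases and phosphofructokinases, the enzymes from glucose phosphate isomerase to lactate dehydrogenase, 2 lactate transporters, 3 pyruvate dehydrogenase kinases and the transcription factor Hif1a. All 33 had a probe on the array, out of 28306 gene names in all, and all 33 were among the 17475 genes with a testable signal. Male C57BL/6 mice were dosed by gavage each day for 14 days, 5 mice in each of 4 groups. Control mice received water. The ptaquiloside group received 5.3 mg/kg of ptaquiloside, a toxin and carcinogen of bracken fern. The selenium group received 1.3 mg/kg of selenium, a trace element needed for selenoproteins, and the combined group received both agents at the same doses. NK cells were purified without labelling them, by removing other cells on magnetic columns, and the RNA of each mouse was hybridised to 1 Agilent whole-genome array with a single dye.

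Glycolysis splits glucose into pyruvate, which either enters the mitochondrion or is reduced to lactate and exported. The committed steps are catalysed by hexokinase, phosphofructokinase and pyruvate kinase, most of which exist as several isoforms encoded by separate genes. Resting NK cells rely largely on oxidative phosphorylation, and activating cytokines are known to raise their glucose uptake and glycolysis. Ptaquiloside is known to lower NK cell cytotoxicity in mice, and selenium to counter that effect.

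Of the 12 markers used to define NK cells, 10 were well above background on all 20 arrays, and Gzmb and Itga2 on 18. Markers of other spleen cells were also present. On all 20 arrays, 4 of 8 B cell, 5 of 8 T cell and 8 of 9 macrophage and monocyte genes were well above background. So were 5 of 8 neutrophil, 5 of 9 erythroid, 6 of 8 dendritic cell and 6 of 7 platelet and megakaryocyte genes. In such bulk samples, fewer cells of a type and less RNA per cell cannot be told apart. The array of ptaquiloside mouse 4 stood apart before any gene was considered. Its 75th percentile of signal was 10.5, against 45.5 to 133 on the other 19 arrays, and 36.3% of its spots were well above background against 51.7% to 60.8%. Over the genes tested, its correlation with the other arrays ran from 0.454 to 0.661, and theirs with each other from 0.899 to 0.991. Differences that involve the ptaquiloside group are therefore given with and without that mouse. The 5 slides each carried 1 mouse of every group, so differences could be formed within a slide. Each group held the same position on every slide, so effects of position and of treatment cannot be told apart.

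The glycolytic program was read out almost in full. Of the 33 genes, 25 were well above background on all 20 arrays and 32 on all of the 19 arrays other than ptaquiloside mouse 4. The exception was Pfkfb2, one of the bifunctional enzymes that set fructose 2,6-bisphosphate, which was detected on 17 arrays. Most steps with several isoforms had more than 1 detected. Hk1, Hk2 and Hk3 were detected, as were Pfkl, Pfkm and Pfkp, Aldoa and Aldoc, Pgam1 and Pgam2, Eno1, Eno2 and Eno3, and Ldha and Ldhb. Isoforms that mark other tissues were at background. Hkdc1, Pgk2 (the testis phosphoglycerate kinase), Slc2a5 (the fructose transporter), Pdk4 and Fbp2 were well above background on 0 of 20 arrays. Slc2a4, the insulin-responsive glucose transporter, reached that level on 2 arrays and Slc2a2, the liver and islet transporter, on 6. Gapdhs, the sperm form of Gapdh, reached it on 11. Ldhc, the testis lactate dehydrogenase, was above background on all 20, as were Slc2a6, Slc2a8, Gpd2 and Fbp1. No spot of a glycolysis gene was saturated. Signals of different probes were not set against each other, so detection, not abundance, is what this isoform survey reports. Since markers of other spleen cells were also detected, a detected isoform cannot be assigned to NK cells alone.

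**Figure D1:**
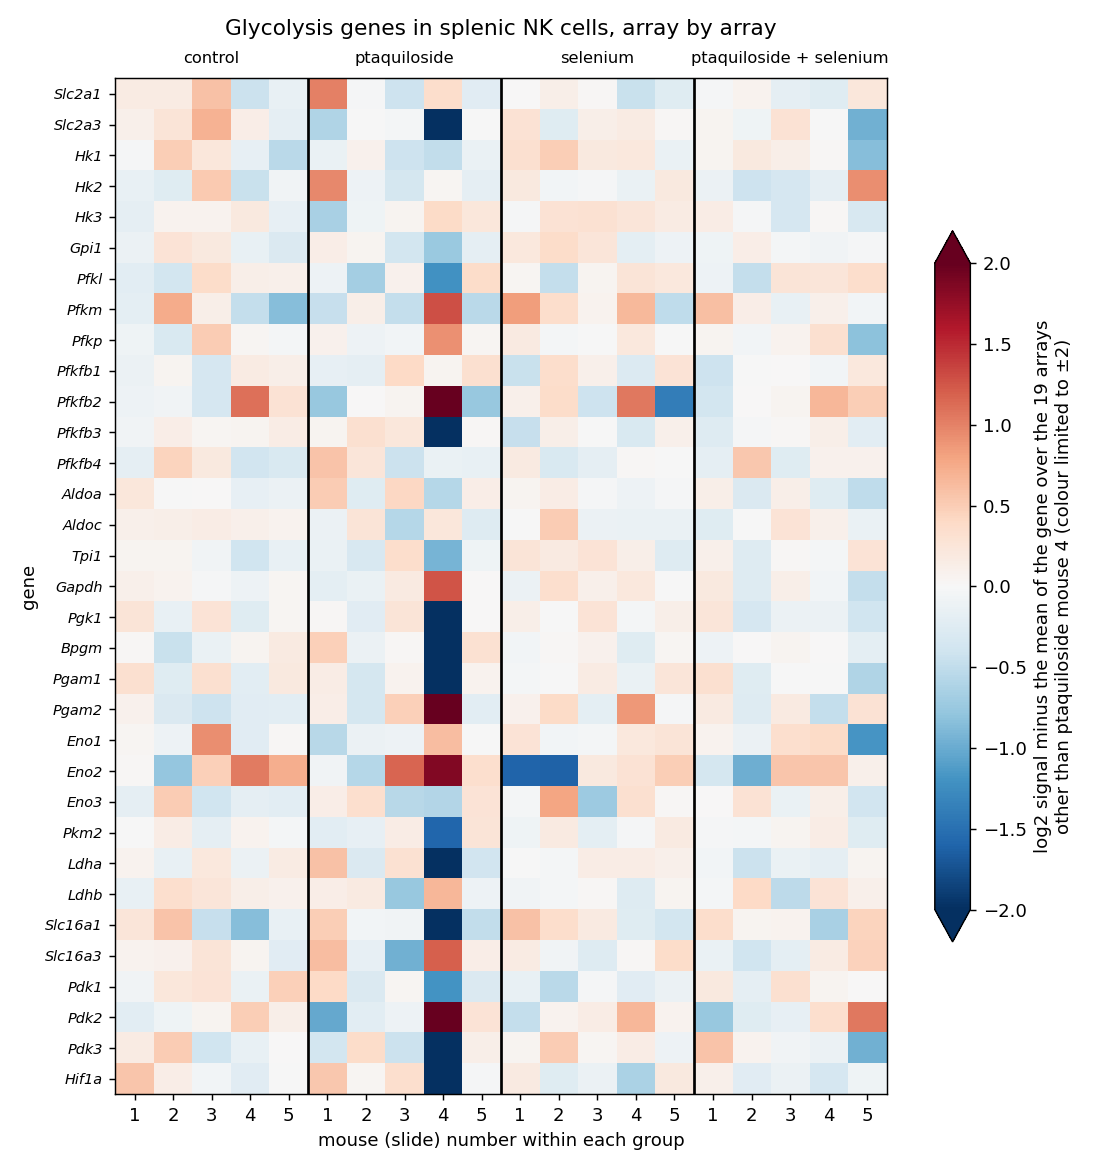
Each row is 1 of 33 glycolysis genes and each column 1 of 20 arrays, grouped by treatment. Colour gives the scaled log2 signal minus the mean of that gene over the 19 arrays other than ptaquiloside mouse 4, limited to 2 either way. The column of ptaquiloside mouse 4 departs in both directions, from Hif1a (-5.43 from the mean of the other 4 ptaquiloside mice) to Pfkfb2 (4.12). Hif1a was not well above background on that array. The mean of the other 4 for Pfkfb2, -3.84, lay below -0.98, the lowest signal called well above background there.

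Promoter sequence is shown for 4 genes, because hypoxia-inducible factor, whose alpha subunit Hif1a encodes, is a known activator of glycolytic promoters through a short core motif. Pdk1 and Eno2 were taken because their unadjusted p with selenium was the smallest of the set, and Ldha and Pgk1 because they are textbook targets of that factor. Windows of 300 bases, from 250 before to 50 after each RefSeq transcription start (GRCm38.p6), were searched on both strands for ACGTG and for GCGTG. Matches are in capitals, written as CACGT and CACGC where they lie on the other strand. A palindromic CACGTG holds ACGTG on both strands and so counts as 2 matches.
Pdk1, chr2:71872974-71873273, plus strand: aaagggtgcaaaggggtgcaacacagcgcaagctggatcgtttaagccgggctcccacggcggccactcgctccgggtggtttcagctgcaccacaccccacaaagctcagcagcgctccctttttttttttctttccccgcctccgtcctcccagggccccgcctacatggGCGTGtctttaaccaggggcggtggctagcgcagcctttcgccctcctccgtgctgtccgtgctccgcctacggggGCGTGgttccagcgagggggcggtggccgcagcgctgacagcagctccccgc
Eno2, chr6:124769624-124769923, minus strand: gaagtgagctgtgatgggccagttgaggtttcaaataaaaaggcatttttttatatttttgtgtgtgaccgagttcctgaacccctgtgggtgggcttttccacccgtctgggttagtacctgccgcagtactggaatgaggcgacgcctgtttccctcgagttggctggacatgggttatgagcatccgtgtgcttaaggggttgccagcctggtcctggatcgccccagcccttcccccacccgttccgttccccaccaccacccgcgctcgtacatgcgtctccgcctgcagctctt
Ldha, chr7:46845554-46845853, plus strand: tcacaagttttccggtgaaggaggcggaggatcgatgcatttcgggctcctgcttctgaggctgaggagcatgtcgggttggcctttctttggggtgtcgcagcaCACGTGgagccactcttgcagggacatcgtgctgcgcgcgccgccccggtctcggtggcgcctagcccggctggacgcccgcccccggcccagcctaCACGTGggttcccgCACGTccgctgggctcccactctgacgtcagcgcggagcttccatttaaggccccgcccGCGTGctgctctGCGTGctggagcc
Pgk1, chrX:106186850-106187149, plus strand: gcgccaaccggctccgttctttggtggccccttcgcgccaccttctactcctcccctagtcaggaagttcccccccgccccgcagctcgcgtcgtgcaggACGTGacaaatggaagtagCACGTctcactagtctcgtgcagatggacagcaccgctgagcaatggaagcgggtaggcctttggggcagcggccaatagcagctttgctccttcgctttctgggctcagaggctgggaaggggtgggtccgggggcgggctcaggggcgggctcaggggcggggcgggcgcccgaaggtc
For Pdk1 and Ldha the RefSeq table held a second window each, not printed, with 0 and 2 matches, the latter to GCGTG. In the printed windows, Pdk1 held 2 matches, both to GCGTG, the nearer starting 2 bases before the transcription start. Eno2 held none in this window. Ldha held 5 matches to ACGTG, 4 of them in 2 palindromes, and 2 to GCGTG. Pgk1 held 2, which began 150 and 131 bases before the start. Of the 33 genes, 32 had at least 1 window in the RefSeq table, with Slc2a3 the one without, and 27 had a match in 1 or more windows. Counted by window, 37 of 51 windows of glycolysis genes (72.5%) held either motif, against 43.8% of all 32851 windows. Their windows were also richer in the CG dinucleotide that both motifs contain, with a median of 17 against 7. Among all windows with at least 17 CG, 72.4% held either motif, against 88.5% of the 26 such windows of glycolysis genes. These are letter matches only, several windows belong to 1 gene, and binding was not measured.

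No glycolysis gene passed the test in any comparison. By limma, 0 of 33 fell under an adjusted p of 0.05, whether 2 groups were set against each other (5 comparisons), the interaction was tested or all 4 groups were compared at once. The same was true of all genes, 0% of 17475. At an unadjusted p under 0.05, ptaquiloside against control held 1 gene of the set, Slc2a3, lower, where 1.5% of all genes passed and 0.561% were lower. Selenium against control held 0, where 1.05% of all genes passed, and the combination against control 0, where 0.229% did. The combination against ptaquiloside held 0 of 33 beside 2.43% of all genes, and the combination against selenium 0 beside 0.584%. The interaction, which asks whether the ptaquiloside difference depended on selenium, held 1, Pdk1, with a positive difference, beside 1.2% of all genes and 0.658% with that sign. The test of any difference held 0 beside 0.961%. These shares do not set the glycolysis genes apart from the rest of the array. The 3 comparisons with control share the same 5 control mice.

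The set as a whole moved little. The median log2 difference from control was -0.12 with ptaquiloside (14 genes higher, 19 lower), 0.02 with selenium (20 higher, 13 lower) and -0.09 with both (10 higher, 23 lower). The medians over all genes tested were -0.00, 0.01 and 0.02. Without ptaquiloside mouse 4 the ptaquiloside median was -0.05, again with 14 higher and 19 lower, but these were not the same genes. Leaving that mouse out turned the direction of the ptaquiloside difference for 14 of 33 glycolysis genes, beside 47.6% of all genes. Of all genes, 49.7% were higher than control with ptaquiloside, 52.7% with selenium and 54.5% with both. The median of the combination against ptaquiloside was 0.09 with all arrays and -0.03 without that mouse, so its direction rests on 1 array. In that comparison 20 of 33 were higher, beside 51% of all genes. Of the 33 genes, 8 were higher and 25 lower in the combination than in selenium alone, with a median of -0.06, beside 50.1% of all genes higher. Array by array, the median deviation of the set from its gene means ran from -0.14 to 0.15 in control mice and from 0.03 to 0.11 in selenium mice. It ran from -0.06 to 0.02 in the combined group and from -0.48 to 0.05 in the ptaquiloside group, where the lowest value was that of mouse 4. Under this scaling the selenium range lay wholly above that of the combined group, and each other pair of ranges overlapped. With each array centred on its median over all genes, the selenium mice ran from -0.04 to 0.14 and the combined mice from -0.15 to 0.04, and these ranges overlapped too.

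**Figure D2:**
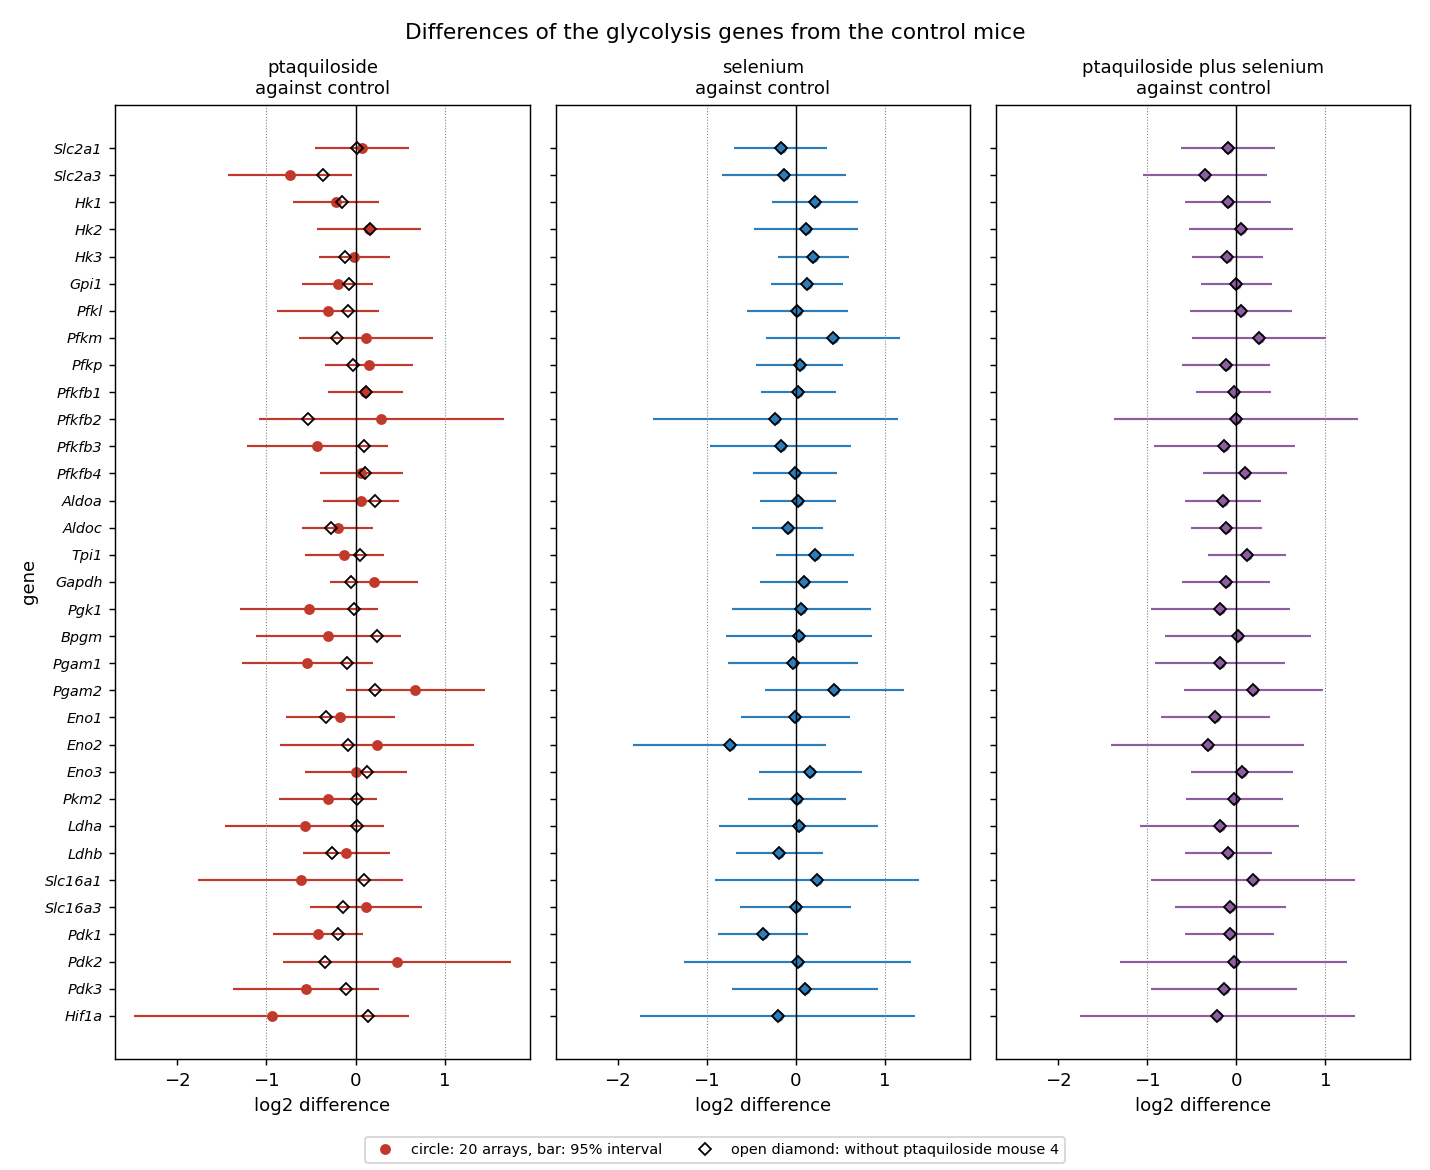
Log2 differences from the control mice for the 33 glycolysis genes, in rows, with ptaquiloside, selenium and both in 3 panels. Circles and bars give the estimate and 95% interval from all 20 arrays, open diamonds the estimate without ptaquiloside mouse 4, and dotted lines a 2-fold change. Only Slc2a3 with ptaquiloside, -0.73 (95% interval -1.43 to -0.04), has an interval that leaves out 0 before adjustment.

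How large a change could have been missed differs by gene. With all arrays, the 95% interval lay within 2-fold either way for 20 of 33 glycolysis genes with ptaquiloside, 26 with selenium and 25 with both. The shares over all genes tested were 42.4%, 53.2% and 57.3%. Without ptaquiloside mouse 4 the counts were 30, 30 and 32, beside 71.2%, 73.3% and 76.7% of all genes. The genes still open to a 2-fold change without that mouse were Pfkfb2, Eno2 and Pdk2 with ptaquiloside, Pfkm, Pfkfb2 and Eno2 with selenium, and Eno2 with both. For the remaining genes a change beyond 2-fold lay outside the unadjusted interval.

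Glucose enters through facilitative transporters. Slc2a3 (GLUT3), a high-affinity transporter of lymphocytes and neurons, was measured by a probe at chr6:122678075-122678134 (mm9). Its scaled log2 signals were 2.53, 2.69, 3.12, 2.56 and 2.26 in control mice 1 to 5 and 1.83, 2.42, 2.40, 0.42 and 2.43 in ptaquiloside mice. They were 2.71, 2.19, 2.54, 2.59 and 2.45 with selenium and 2.49, 2.34, 2.72, 2.42 and 1.46 with both. The value of ptaquiloside mouse 4 lay far below every other, and the groups overlapped. The ptaquiloside difference was -0.73 ± 0.33 (SE), with an unadjusted limma p of 0.0404 and an adjusted p of 0.801, and it was negative on 4 of 5 slides. Without mouse 4 it was -0.36, with an unadjusted limma p of 0.13. With both agents Slc2a3 was lower than control on 5 of 5 slides, with differences from -0.79 to -0.04, a mean difference of -0.35 ± 0.33 and an adjusted limma p of 1. That difference was -0.14 without combined mouse 5 and -0.23 without control mouse 3. A second probe named Slc2a3, which the file places on chromosome 17, was above background on 6 arrays and gave 0.26 with ptaquiloside, or -0.66 without mouse 4. Slc2a1 (GLUT1), the transporter induced in activated lymphocytes, differed from control by 0.07 ± 0.25 with ptaquiloside (0.02 without mouse 4), -0.17 ± 0.25 with selenium and -0.09 ± 0.25 with both.

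Hexokinases trap glucose in the cell as glucose 6-phosphate. Hk1, the housekeeping isoform (chr10:61731916-61731975), read 3.65, 4.16, 3.90, 3.51 and 3.13 in control mice and 3.98, 4.16, 3.86, 3.88 and 3.53 with selenium. With both agents it read 3.72, 3.86, 3.78, 3.69 and 2.83, which was below the selenium mouse of the same slide on 5 of 5 slides. The difference of the combination from selenium was -0.31 ± 0.23 (limma, adjusted p = 1), and mouse 5 of the combined group was the lowest of all 20 arrays. Without it the difference was -0.12. With ptaquiloside alone Hk1 read 3.54, 3.76, 3.25, 3.19 and 3.54, a difference from control of -0.21 ± 0.23, or -0.15 without mouse 4. Hk3, the isoform of myeloid cells (chr13:55107900-55107959), read 1.21, 1.47, 1.46, 1.59 and 1.23 in control mice and 1.37, 1.68, 1.70, 1.63 and 1.56 with selenium. The selenium value was higher on 5 of 5 slides, by 0.04 to 0.33, while the groups overlapped and the difference was 0.19 ± 0.19 (limma, adjusted p = 1). With both agents Hk3 read 1.54, 1.37, 1.06, 1.41 and 1.07, a difference from selenium alone of -0.29 ± 0.19 that was negative on 4 of 5 slides. Beside these values stand the myeloid markers. In selenium mice 7 of 8 neutrophil markers were higher than control (median 0.55) and 9 of 9 macrophage and monocyte markers lower (median -0.59). Of all genes, 52.7% were higher. The part of these markers in the Hk3 values was not tested. Hk2, the inducible isoform, differed from control by 0.15 ± 0.28 with ptaquiloside (0.16 without mouse 4), 0.11 ± 0.28 with selenium and 0.06 ± 0.28 with both. Its 2 highest arrays, 3.14 in ptaquiloside mouse 1 and 3.10 in combined mouse 5, stood above a range of 1.73 to 2.71 on the others.

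Phosphofructokinase commits sugar to glycolysis, and its muscle form Pfkm carried the widest intervals of the 3 isoforms. Pfkm ran from -1.07 to 0.53 in control mice, from -0.72 to 0.62 with selenium, from -0.36 to 0.39 with both and from -0.75 to 1.08 with ptaquiloside. The highest ptaquiloside value was that of mouse 4. It was higher than control by 0.41 ± 0.36 with selenium and by 0.26 ± 0.36 with both, on 3 of 5 slides each. These 2 differences were 0.23 and 0.08 without control mouse 5, and 0.63 and 0.48 without control mouse 2. With ptaquiloside the difference was 0.12 ± 0.36, or -0.21 without mouse 4. Pfkl, the liver form, was higher in the combination than in ptaquiloside by 0.36 ± 0.27, and by 0.14 without ptaquiloside mouse 4. The bifunctional enzymes Pfkfb1 to Pfkfb4 make or remove fructose 2,6-bisphosphate, the strongest activator of phosphofructokinase. With selenium they differed from control by 0.03 ± 0.20, -0.23 ± 0.66, -0.17 ± 0.38 and -0.01 ± 0.22. With ptaquiloside, Pfkfb3, the form induced in proliferating and activated cells, was at -0.43 ± 0.38 with mouse 4 and at 0.09 without it, and Pfkfb2 at 0.29 ± 0.66 and -0.54. Pfkp, the platelet form, differed from control by 0.15 ± 0.24 with ptaquiloside, or -0.03 without mouse 4, by 0.04 ± 0.24 with selenium and by -0.11 ± 0.24 with both. None of these differences passed the test (adjusted limma p from 0.801 upward). The 3 Pfkp probes gave 0.15, -0.53 and 0.26 with ptaquiloside, and -0.03, -0.11 and 0.10 without mouse 4. For Pfkfb3 the 3 probes gave -0.43, 0.26 and 0.50 with ptaquiloside, and 0.09, 0.15 and -0.02 without mouse 4. A second Pfkfb2 probe, above background on 13 arrays, gave 0.52 with ptaquiloside and 0.40 without mouse 4, the latter opposite in sign to the main probe.

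Genes of the middle steps were among the steadiest. Aldoa, which splits fructose 1,6-bisphosphate, lay between 6.85 and 7.23 in control mice and between 6.90 and 7.16 in selenium mice. In the combined group it lay between 6.50 and 7.13, a difference from control of -0.15 ± 0.20 and from selenium of -0.17 ± 0.20. Without combined mouse 5 these were -0.06 and -0.08. Gapdh, often used as a reference gene, lay between 5.45 and 5.64 in control mice and between 5.07 and 5.74 in the combined group. In the ptaquiloside group it lay between 5.35 and 5.73 in 4 mice, with mouse 4 at 6.81. The difference of the combination from ptaquiloside, -0.32 ± 0.24, became -0.06 without mouse 4, and its difference from selenium was -0.20 ± 0.24. Tpi1, which interconverts the triose phosphates, differed from control by 0.21 ± 0.21 with selenium and 0.12 ± 0.21 with both. Aldoc, the brain aldolase, differed by -0.09 ± 0.19 and -0.11 ± 0.19. Pgk1, the first enzyme of the pathway to yield ATP, was at -0.52 ± 0.37 with ptaquiloside, where 5 of 5 slides were lower, and at -0.02 without mouse 4. Bpgm, which makes 2,3-bisphosphoglycerate in red cells, likewise went from -0.30 ± 0.39 to 0.24, and was not well above background in mouse 4. The probes for Gpi1 and Pgk1 were printed in 10 copies on each array, of which 7 to 10 were used. The spots had a median SD of 0.06 for Gpi1 and 0.05 for Pgk1 on the 19 other arrays, beside an SD between mice of a group of 0.21 for both genes. Spots of 1 array share its labelling and hybridisation, whose error they do not show.

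Phosphoglycerate mutase and enolase each have a general isoform and others typical of muscle or brain. Pgam1, the general isoform, read 5.17, 4.62, 5.18, 4.64 and 5.05 in control mice and 5.01, 4.50, 4.92, 2.61 and 4.93 with ptaquiloside. It was lower on 5 of 5 slides, but the difference of -0.54 ± 0.35 became -0.09 without mouse 4. Pgam2, the muscle isoform (chr11:5701822-5703040), read -3.04, -3.41, -3.54, -3.36 and -3.34 in control mice, near the lowest signals called above background. With ptaquiloside it read -2.99, -3.48, -2.66, -0.86 and -3.34. With selenium it read -3.05, -2.74, -3.33, -2.27 and -3.15, and with both -2.95, -3.39, -2.95, -3.61 and -2.84. The groups overlapped, and mouse 4 of the ptaquiloside group was again the extreme. The ptaquiloside difference was 0.67 ± 0.37, or 0.22 without that mouse, and the selenium difference 0.43 ± 0.37 (4 of 5 slides higher), or 0.27 without selenium mouse 4. The combination differed from ptaquiloside by -0.48 ± 0.37, or -0.03 without mouse 4. Eno3, the muscle enolase, differed from control by 0.16 ± 0.27 with selenium. Eno1, the general enolase, differed from control in the combined group by -0.24 ± 0.29, and by 0.03 once mouse 5 of that group, at -0.73, was left out. Without control mouse 3 it was -0.04.

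Eno2, the neuronal enolase, had the widest spread among the 33 genes. Measured at chr6:124710545-124710604, it read -1.90, -2.71, -1.46, -0.89 and -1.21 in control mice and -3.53, -3.54, -1.74, -1.65 and -1.44 with selenium. With ptaquiloside it ran from -2.49 in mouse 2 to -0.08 in mouse 4, with a median of -1.59, and with both it read -2.28, -2.91, -1.37, -1.38 and -1.83. Slides 1 and 2 were low in each group and slides 3 to 5 high, with the selenium mouse below its control on 5 of 5 slides and differences from -1.62 to -0.23. The groups overlapped. The selenium difference was -0.74 ± 0.52, with an unadjusted limma p of 0.168 and an adjusted p of 1. With the slide as a block the unadjusted limma p was 0.00883, where 1.89% of all genes fell under 0.05, and the adjusted p was still 1. A second Eno2 probe, above background on 16 arrays, gave -0.91. Without selenium mouse 1 or mouse 2 the main probe gave -0.46 and -0.45. The values of those 2 mice, -3.53 and -3.54, lay near the lowest signals called above background on their arrays, -4.39 and -3.96. With both agents Eno2 differed from control by -0.32 ± 0.52, and by -0.08 without combined mouse 2. With ptaquiloside it differed by 0.24 ± 0.52, or -0.08 without mouse 4. Without ptaquiloside mouse 4 the selenium difference was the same, since that mouse enters only the estimate of the spread.

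**Figure D3:**
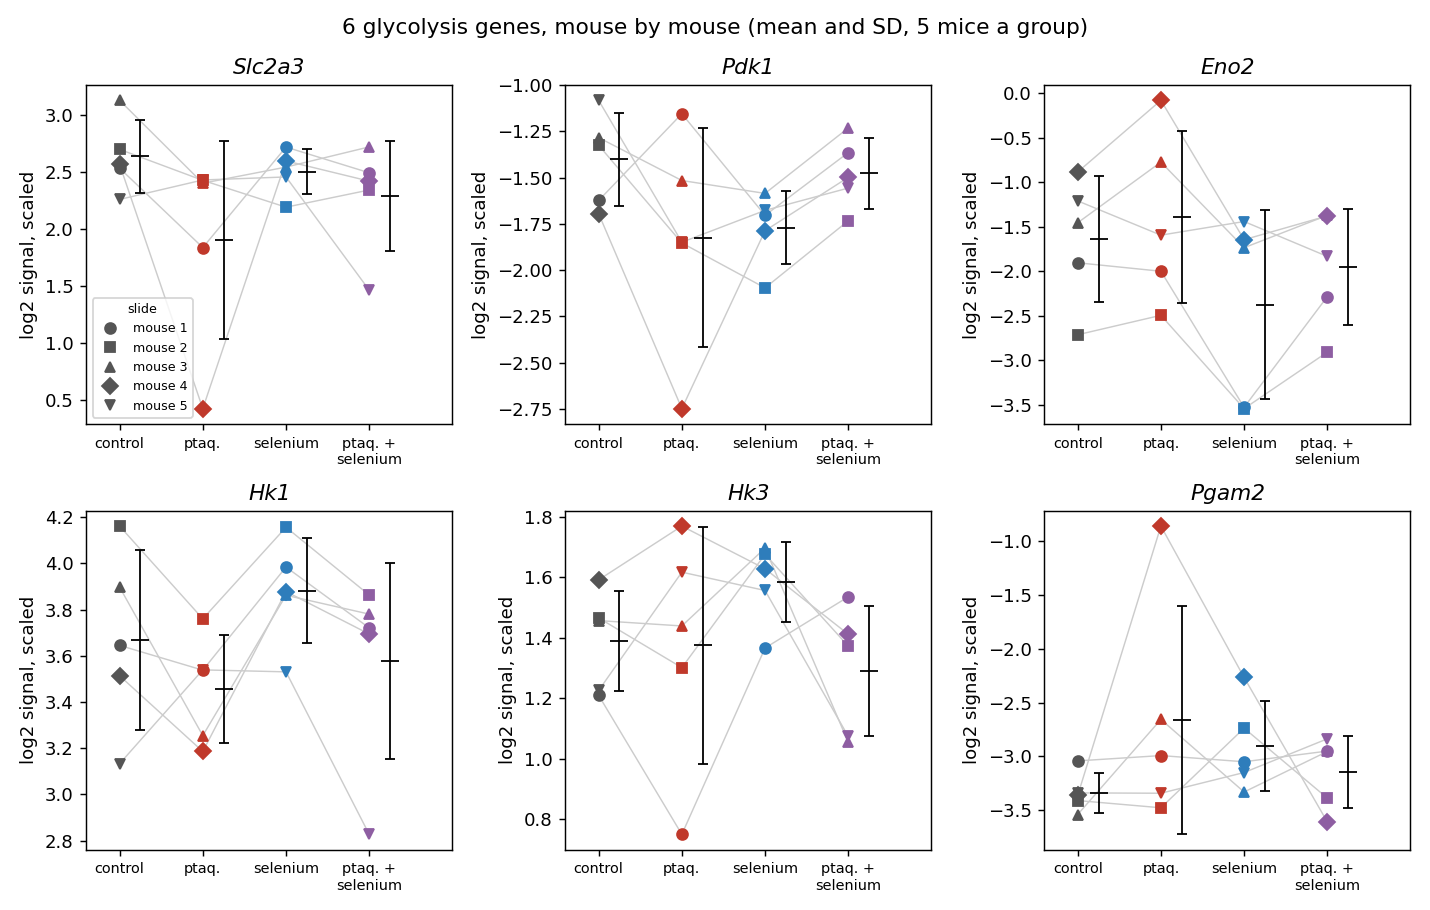
Scaled log2 signal of 6 glycolysis genes in each mouse of the 4 groups, with symbols for the mouse number, grey lines joining mice of a slide, and bars for the mean and SD of 5 mice. The groups overlap in every panel, and ptaquiloside mouse 4 (red diamond) is the extreme of Slc2a3 (0.42), Pdk1 (-2.75), Eno2 (-0.08), Hk3 (1.77) and Pgam2 (-0.86).

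Pyruvate is turned to lactate by lactate dehydrogenase and exported by monocarboxylate transporters. Ldha, the lactate dehydrogenase form favoured in proliferating cells, and the pyruvate kinase gene listed as Pkm2, whose splice forms the probe was not mapped to, differed from control with selenium by 0.03 ± 0.43 and 0.01 ± 0.26. With both agents Ldha was lower than control on 5 of 5 slides and lower than selenium on 5 of 5, with mean differences of -0.18 ± 0.43 and -0.22 ± 0.43. With ptaquiloside Ldha and Pkm2 were at -0.57 ± 0.43 and -0.31 ± 0.26, and at 0.02 and 0.01 without mouse 4. For the combination against ptaquiloside, the 3 Pkm2 probes gave 0.29, 0.40 and 0.81. Without mouse 4 they gave -0.03, -0.17 and 0.43. Ldhb, the heart form, differed from control by -0.10 ± 0.23 with ptaquiloside, or -0.26 without mouse 4, by -0.18 ± 0.23 with selenium and by -0.09 ± 0.23 with both. Slc16a1 (MCT1) read 0.95, 1.28, 0.24, -0.14 and 0.55 in control mice, 1.19, 0.65, 0.64, -2.90 and 0.22 with ptaquiloside and 1.05, 0.77, 0.78, 0.06 and 1.16 with both. It was not well above background in ptaquiloside mouse 4. The difference of the combination from ptaquiloside, 0.80 ± 0.55 (limma, adjusted p = 0.821), was 0.09 without that mouse. Slc16a3 (MCT4), the export transporter of strongly glycolytic cells, differed from control by 0.12 ± 0.30 with ptaquiloside, or -0.14 without mouse 4, by -0.00 ± 0.30 with selenium and by -0.07 ± 0.30 with both.

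Pyruvate dehydrogenase kinases hold pyruvate back from the mitochondrion. Pdk1 (chr2:71741820-71741879) read -1.62, -1.32, -1.28, -1.69 and -1.08 in control mice and -1.70, -2.10, -1.58, -1.79 and -1.68 with selenium. It read -1.15, -1.85, -1.52, -2.75 and -1.85 with ptaquiloside and -1.36, -1.73, -1.23, -1.50 and -1.56 with both. Below every control mouse lay 3 of 5 selenium mice, 3 of 5 ptaquiloside mice and 1 of 5 combined mice, and the groups overlapped. The selenium value was lower than control on 5 of 5 slides, with differences from -0.77 to -0.08, a mean difference of -0.37 ± 0.24 and an unadjusted limma p of 0.141. That p was 0.0387 without ptaquiloside mouse 4, where 2.6% of all genes fell under 0.05, with an adjusted p of 1 in both fits. The combined value was higher than selenium on 5 of 5 slides, by 0.12 to 0.36, with a mean difference of 0.29 ± 0.24. The ptaquiloside difference was -0.42 ± 0.24 (4 of 5 slides lower), or -0.19 without mouse 4, whose Pdk1 probe was not well above background. The combination differed from ptaquiloside by 0.35 ± 0.24, or 0.12 without mouse 4. The interaction was 0.72 ± 0.34 with an unadjusted limma p of 0.0481 and an adjusted p of 0.998, and 0.48 without that mouse. A second Pdk1 probe gave -0.30 with selenium and -0.46 with ptaquiloside, or -0.31 without mouse 4. For the combination it gave only 0.05 against selenium, and 0.22 against ptaquiloside, or 0.06 without mouse 4. Its interaction was 0.51 with an unadjusted limma p of 0.148, and 0.36 without mouse 4. The next 4 genes by interaction were Pgam2 (-0.91 ± 0.53), Gapdh (-0.41 ± 0.33), Slc2a3 (0.52 ± 0.47) and Hk3 (-0.28 ± 0.27). Without mouse 4 these interactions were -0.46, -0.15, 0.15 and -0.18. Pdk3 differed with ptaquiloside by -0.56 ± 0.39, or -0.11 without mouse 4, and Pdk2 by 0.47 ± 0.61, or -0.34 without it. Hif1a itself differed from control by -0.94 ± 0.74 with ptaquiloside, or 0.14 without mouse 4, by -0.20 ± 0.74 with selenium and by -0.21 ± 0.74 with both. In ptaquiloside mouse 4 the probes of Pdk3 and Hif1a were not well above background.

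Within slides, selenium left 1 of 33 glycolysis genes, Hk3, higher than control on all 5 slides, where 5.4% of all genes were. It left 4, Slc2a1, Pfkfb3, Eno2 and Pdk1, lower on all 5, where 4.27% of all genes were. With ptaquiloside there were 2, Pgk1 and Pgam1, both lower, beside 1.78% of all genes lower. With both agents there were 3, Slc2a3, Ldha and Hif1a, all lower, beside 2.14%. Against selenium the combination held Pdk1 higher (2.2% of all genes) and Hk1 and Ldha lower (2.5%), and against ptaquiloside 1, Eno2, lower (1.58%). Between groups as a whole no gene of the set separated: in each of the 5 comparisons 0 of 33 had groups that did not overlap, where 0.114% (ptaquiloside), 0.498% (selenium) and 0.155% (both) of all genes did against control, 0.2% between the combination and ptaquiloside and 0.16% between the combination and selenium.

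Most glycolysis genes varied less between mice of a group than the median gene did. Over the 19 arrays other than ptaquiloside mouse 4, their median SD within groups was 0.29, against 0.39 for all genes. Pkm2 (0.17), Pfkfb3 (0.17) and Gapdh (0.19) were the steadiest, and Eno2 (0.81) and Pfkfb2 (0.63) the most variable. The slide took a median of 40.5% of the within-group variance, against 46.7% for all genes. For Pfkl and Eno2 it took 89.3% and 86.7%, so that for these 2 genes most of the spread was shared by the mice of a slide.

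**Figure D4:**
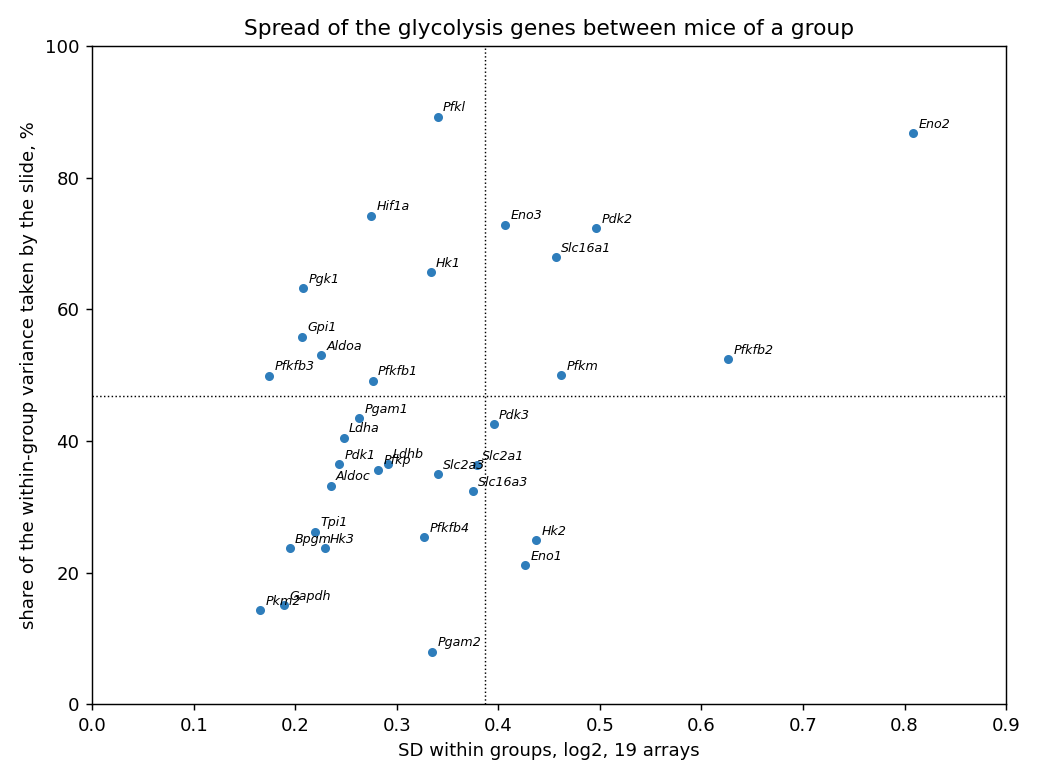
SD within groups (log2, 19 arrays, horizontal) against the share of that variance taken by the slide (percent, vertical) for each of 33 glycolysis genes, with dotted lines at the medians over all genes, 0.39 and 46.7%. Most glycolysis genes lie left of the vertical line, and Eno2, at 0.81 and 86.7%, has the widest SD and the second highest share, after Pfkl (89.3%).

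The array of ptaquiloside mouse 4 moved glycolysis genes apart. It lay below the range of the other 4 ptaquiloside mice for 17 of 33 genes, above it for 11 and within it for 5. Of all genes with values on these arrays, 43.9% lay below, 43% above and 13.1% within, so departure in both directions was general on that array. The lowest were Hif1a (-5.43 from the mean of the other 4), Slc16a1 (-3.57), Ldha (-2.93), Bpgm (-2.70) and Pfkfb3 (-2.63). Of these, Hif1a, Slc16a1 and Bpgm were not well above background on that array, so the size of their fall is uncertain. The highest were Pfkfb2 (4.12), Pdk2 (4.03), Pgam2 (2.25), Eno2 (1.63) and Pfkm (1.63). Of the 33 genes, 26 were well above background there. The lowest scaled signal so called was -0.98 on that array, against -4.76 to -3.29 on the others. The means of the other 4 mice for Pfkfb2 (-3.84), Pdk2 (-2.60), Pgam2 (-3.12) and Eno2 (-1.72) lay below -0.98. The size of these rises is therefore uncertain too. These genes were singled out after their values were seen.

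**Figure D5:**
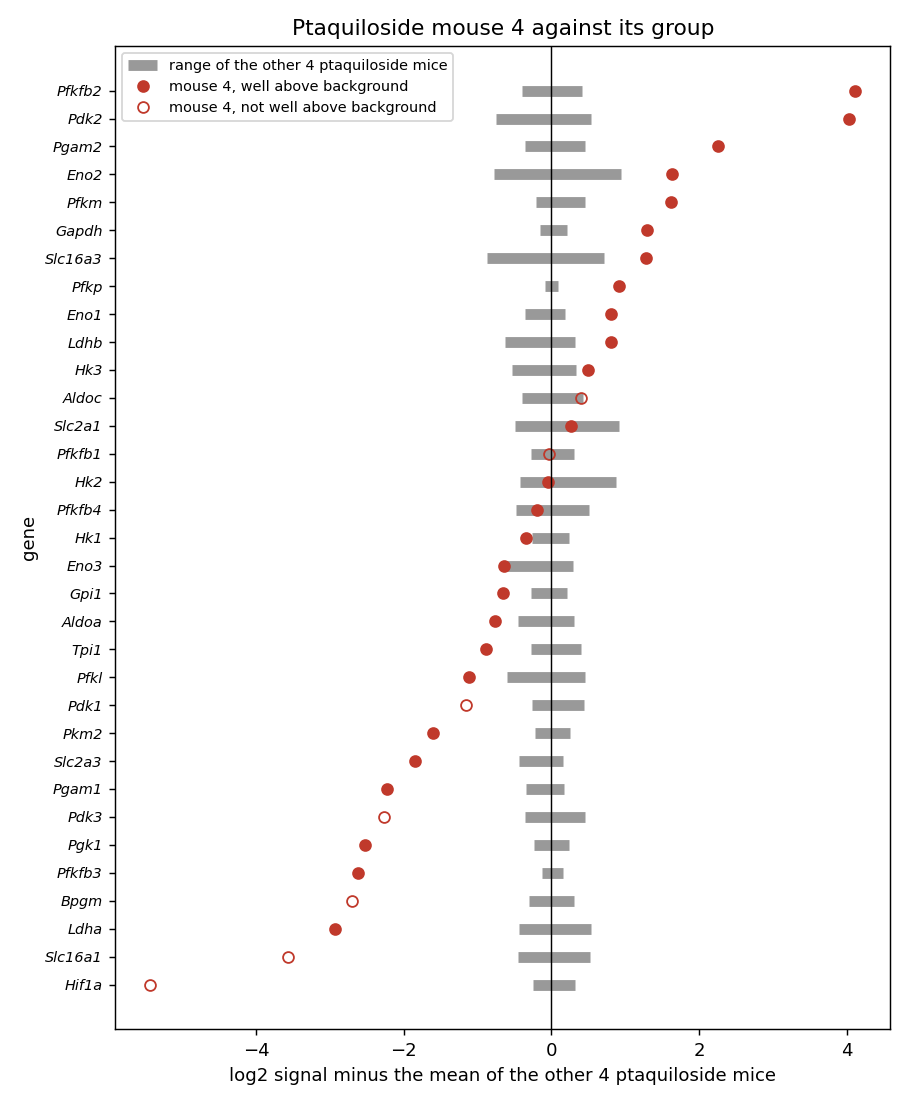
Scaled log2 signal of ptaquiloside mouse 4 minus the mean of the other 4 ptaquiloside mice (horizontal) for 33 glycolysis genes in rows, with grey bars for the range of the other 4. Open circles mark probes not well above background on that array. Only 5 genes (Aldoc, Slc2a1, Pfkfb1, Hk2 and Pfkfb4) lie within the grey bars.

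Neighbouring pathways gave no call either, with 0 genes past an adjusted p of 0.05 by limma in every comparison. Against control, selenium left the pentose phosphate genes at a median of 0.13 (8 of 11 higher), the citrate cycle at 0.09 (17 of 20 higher), and the pyruvate dehydrogenase and pyruvate import genes at 0.01 (5 of 9 higher). Hypoxia-inducible genes outside glycolysis had a median of -0.02 with selenium (6 of 15 higher). Among them Ddit4, an inhibitor of mTOR signalling, was higher by 1.17 ± 0.52 (limma, adjusted p = 1). Upstream regulators had a median of 0.03 (11 of 17 higher), and the other glycolysis-related isoforms 0.05 (10 of 15 higher). Beside these counts, 52.7% of all genes were higher with selenium. With ptaquiloside the medians rested on mouse 4. The citrate cycle was at -0.46 with it and -0.02 without, the pyruvate dehydrogenase and import genes at -0.47 and 0.05, the pentose phosphate genes at -0.37 and -0.02, hypoxia-inducible genes at -0.20 and 0.01, and upstream regulators at -0.37 and 0.13. Mycn, a regulator of growth and metabolism, differed with ptaquiloside by -0.66 ± 0.22 (limma, adjusted p = 0.801), and by -0.63 without that mouse.

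All 24 cell cycle genes were higher than control in selenium mice, with a median of 0.62, beside 52.7% of all genes higher. Of the 24, 2 had an unadjusted limma p under 0.05, where 1.05% of all genes did and 0.401% were higher. In those mice 8 of 8 B cell markers (median -1.06) and 8 of 8 T cell markers (median -0.50) were lower, while 12 of 12 NK markers were higher (median 0.27). Per array, the median deviation of the B cell markers ran from -0.05 to 1.15 in control mice and from -1.36 to 0.01 in selenium mice. That of the T cell markers ran from -0.18 to 0.76 and from -0.52 to -0.30, and that of the cell cycle genes from -0.62 to 0.51 and from -0.69 to 0.83. Erythroid markers had a median of 0.14 with selenium, dendritic cell markers -0.06, and platelet and megakaryocyte markers 0.19. With ptaquiloside and mouse 4 left out, 8 of 8 B cell (median -0.51), 8 of 8 T cell (-0.32) and 8 of 8 neutrophil markers (-0.28) were lower than control and 10 of 12 NK markers higher (0.14). In that fit 49.8% of all genes were higher. With both agents, 23 of 24 cell cycle genes were higher than control (median 0.24), 6 of 8 B cell markers lower (-0.17) and 9 of 12 NK markers higher (0.09). Of all genes, 54.5% were higher with both. Genes of a list were measured in the same mice, so these counts are not of independent genes. The part of these lists in the values of glycolysis genes was not tested.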

How the data were processed

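NK cell RNA of 20 mice was measured on Agilent single-colour arrays. Per the submitters' processing notes, the scanner files came from Agilent Feature Extraction 9.5.3.1, and per the file headers its processed signal is a spot intensity after background subtraction, with no scaling between arrays. Columns of unit other, deposited by the authors, flag control spots, outliers and spots above background. The authors' table of processed log2 values was not used: some of its 20 sample columns hold averages, or other mice than they name.

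For each spot that was neither a control nor an outlier, the array's 75th percentile was subtracted from log2 of the processed signal. Spots of a probe were averaged, probes well above background on 5 or more arrays were kept, and the brightest probe stood for a gene. Of 41174 probes, 25097 were named by accession through RefSeq gene names and 16077 kept the file's name. Of the glycolysis genes, 17 had several tested probes, which differed in sign from each other for 4 to 8 genes, depending on the comparison. Probe coordinates are mm9 as the files give them. Near-identical gene copies, such as those of Gapdh, were not checked.

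Differences between groups were tested with limma 3.58.1 (R 4.3.3), with 1 mean per group over all 20 arrays, two-sided, and Benjamini-Hochberg adjustment over 17475 genes per comparison. Errors beside differences are standard errors (SE). The number of arrays limits precision. Without the slide as a block, each p-value sets a difference against the spread between arrays of a group, 1 mouse each, slide differences included. The scripts were tested on simulated data. Per the file headers, mice of the same number shared a slide. The correlation of their deviations from group means had a median of 0.45 and was over 0.1 for 24 of 30 pairs, against a median of -0.08 for other pairs. The members and lists were chosen with earlier results of these data known. In each comparison the 5 glycolysis genes with the smallest unadjusted p were named, and other members where a count or a range singled them out. Of each other list at most 4 genes with the smallest p could be named. Alternatives covered the slide block, background correction, normalization, filters, the probe rule and left-out arrays.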

Additional observations from a re-analysis of the deposited data

Results flagged for a closer look

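In 20 of the 132 sets of 5 mice (33 glycolysis genes in 4 groups), 1 array lay far from the others by Dixon's criterion, which chance alone would meet in about 1 set in 20. Of these, 12 were ptaquiloside mouse 4. It was the lowest of its group for Pfkfb3 (0.40), Pgk1 (2.28), Bpgm (-3.10), Pgam1 (2.61), Pkm2 (2.38), Ldha (3.00), Slc16a1 (-2.90) and Hif1a (-2.91). It was the highest for Pfkp (4.19), Pfkfb2 (0.28), Gapdh (6.81) and Pdk2 (1.43). Scaled log2 signals are given. On the array of ptaquiloside mouse 4, Bpgm, Slc16a1 and Hif1a were not well above background.

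The other 8 were spread over 4 groups. In the combined group, mouse 5 was lowest for Hk1 (2.83) and highest for Hk2 (3.10), and mouse 2 was highest for Gpi1 (6.41). Ptaquiloside mouse 1 was highest for Hk2 (3.14). In the selenium group, mouse 2 was highest for Aldoc (-1.16) and mouse 5 lowest for Tpi1 (3.60). In the control group, mouse 3 was highest for Eno1 (1.38) and mouse 2 for Eno3 (2.87).

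No glycolysis gene moved one way with ptaquiloside on every slide without selenium and the other way on every slide with it, and none passed the interaction test (0 of 33 at an adjusted limma p under 0.05).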

How the results depend on the processing

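In 211 alternative counts over 7 tests, 0 glycolysis genes were called each time. The alternatives included the slide as a replicate block (0 called in every comparison), each of the 20 arrays left out, normexp background correction, quantile normalization, median centring, other probe filters and the mean over probes. On the whole array 1 gene was called in any of them, in the interaction without combined mouse 4. The block changed no call. Of the alternative medians of the set, 175 stayed within the spread between arrays (SD 0.13) and 7 moved. Median centring gave -0.36 for ptaquiloside against control, 0.27 for the combination against ptaquiloside and 0.18 for the interaction, where the medians of all genes also moved, to -0.24, 0.20 and 0.15. Leaving out control mouse 1 and ptaquiloside mouse 4, an alternative chosen after seeing the data because the authors' table replaces both by means, gave -0.094 for the interaction. Unscaled log2 values, as the methods' t-test uses them, gave -0.87, -0.13 and -0.29 for ptaquiloside, selenium and both against control, with 0 called.

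For the 5 genes with the smallest p in each comparison, 886 alternative values kept their direction and their side of the threshold. Pdk1 in the combination against ptaquiloside reversed to -0.038 under normexp, and Eno1 in the combination against control to 0.032 without combined mouse 5. The cause was not tested. Over all 33 glycolysis genes, leaving out ptaquiloside mouse 4 turned the direction of 14 against control, 15 in the combination against ptaquiloside and 16 in the interaction, beside 47.6%, 47.9% and 40.2% of all genes. The fit on the authors' table was not run. Dim probes such as Pfkfb2 and Pgam2 lie near background, which limits what their values can show.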
